A study of Mus musculus with 72 samples.

Results

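The 9 genes described here encode the main proteases of the mitochondrion and the chaperones that work with them: Clpx, Clpp, Lonp1, Yme1l1, Afg3l2, Spg7, Htra2, Hspa9 and Trap1. They are 9 of the 50307 genes of the count table, matched by symbol to their Ensembl identifiers, and all 9 were among the 14954 genes with enough counts to be tested. The set was selected on the RNA level of Clpx, which was higher in livers of mice fed little isoleucine, so the values of Clpx in low against control and in high against low isoleucine are given as a description without a test. The other 8 were added for their function. Liver RNA was sequenced from mice fed a Western diet with low, high or control isoleucine, in the strains DBA/2J (DBA) and C57BL/6J (B6, spelt C56BL/6J in the strain field of the labels), males and females, which gives 12 groups of 6 libraries. All mice had 12 weeks on their diet and a fast of 16 h before the liver was taken, and the age field gives 18 weeks. The design text has the diets starting at 6 weeks of age, the treatment text of the labels at 18 weeks. Isoleucine is a branched-chain amino acid that mice must obtain from food, and a Western diet is rich in fat and sugar. The labels speak of poly-A RNA in one place and of total RNA in another. No group ate another diet, so every group here, controls included, carries the Western diet and the fast.

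Most mitochondrial proteins are made in the cytosol and imported unfolded, and the organelle has its own machinery to fold, cut and degrade them. In the matrix, ClpX is a ring-shaped ATPase that unfolds proteins and feeds them into the ClpP peptidase, and it also activates the first enzyme of heme synthesis by loading its cofactor. Lonp1 is the other soluble matrix protease and degrades oxidised proteins. The inner membrane carries the i-AAA protease Yme1l1, facing the intermembrane space, and the m-AAA protease of Afg3l2 and Spg7 (paraplegin), facing the matrix. Htra2 is a serine protease of the intermembrane space. Hspa9 (mortalin) is the matrix Hsp70 that pulls in imported proteins, and Trap1 is the mitochondrial member of the Hsp90 family.

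The 250 bases before the RefSeq transcript start are shown for the Clp ATPase, for its peptidase, whose RNA did not pass the test, and for Trap1, whose RNA went the opposite way. The window of Clpx is chr9:65294010-65294259 on the plus strand, that of Clpp is chr17:56990014-56990263 on the plus strand and that of Trap1 is chr16:4077811-4078060 on the minus strand (RefSeq, GRCm38.p6). Each is written 5′ to 3′ on the gene's own strand, with motif matches in capitals.
Clpx: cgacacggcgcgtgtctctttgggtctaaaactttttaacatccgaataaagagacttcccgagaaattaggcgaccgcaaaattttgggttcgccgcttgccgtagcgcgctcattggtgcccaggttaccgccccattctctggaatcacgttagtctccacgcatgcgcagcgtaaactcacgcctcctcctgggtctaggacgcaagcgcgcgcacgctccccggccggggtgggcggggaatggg
Clpp: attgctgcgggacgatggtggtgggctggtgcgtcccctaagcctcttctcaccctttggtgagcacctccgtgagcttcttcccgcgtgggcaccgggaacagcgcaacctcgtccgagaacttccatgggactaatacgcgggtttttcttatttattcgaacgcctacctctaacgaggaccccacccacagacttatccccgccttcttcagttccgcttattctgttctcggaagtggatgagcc
Trap1: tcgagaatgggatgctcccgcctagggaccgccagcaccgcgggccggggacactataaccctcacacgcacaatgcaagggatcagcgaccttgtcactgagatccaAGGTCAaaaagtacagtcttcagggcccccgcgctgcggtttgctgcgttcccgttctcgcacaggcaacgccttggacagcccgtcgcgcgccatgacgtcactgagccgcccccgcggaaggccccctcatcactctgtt
The motifs searched on both strands were the E-box CACGTG, the D-box TTATGTAA, the amino acid response element core TGATGNAA and AGGTCA, the hexamer of nuclear receptors. They are found in 6.02%, 0.819%, 3.45% and 14%, in that order, of 32851 RefSeq windows of this length. The windows of Clpx and Clpp held no match to any of these letters, and Trap1 held AGGTCA from base -142 to -137. Of the 6 members matched in the RefSeq table, Lonp1 was the other with a match, an E-box from -36 to -31. These are matches of letters in a window and say nothing of what binds there.

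Library totals, in units of 1000000 counts, were 12.96 to 51.1 with a median of 24.1. Each level is given in CPM, the count scaled to a library of 1000000 after TMM normalization (edgeR's trimmed mean scaling between libraries). Whether libraries of a group are different mice is not in the labels, so the p-values below speak of variation among libraries, which can be partly technical. Hepatocyte genes were abundant, with Alb, the albumin gene, at a median of 64702 CPM. With low against control isoleucine 17.8% of all tested genes rose and 20% fell (edgeR, adjusted p under 0.05), the shares against which the marker counts stand. Of the hepatocyte markers 4 of 6 rose, 4 of 6 Kupffer cell markers and 4 of 5 markers of infiltrating macrophages fell, and 3 of 5 markers of sinusoidal endothelium rose. The summed hepatocyte markers ranged from 80961 to 131199 CPM in low libraries and from 64207 to 107517 CPM in control libraries. The summed Kupffer markers ranged from 56.1 to 252 CPM in low libraries and from 87.5 to 542 CPM in control libraries. Of stellate cell markers 2 of 5 fell, of cholangiocyte markers 1 of 4 rose, of erythroid markers 1 of 3 fell and of lymphocyte markers 0 of 5 passed. The pancreas markers Prss2 and Ctrb1 and all 3 muscle markers had a median of 0 CPM, and Cela1 fell. The part of this shift in the members' values was not tested. In bulk liver, fewer cells of a type and less RNA per cell cannot be told apart.

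Levels of different genes are compared per kilobase (kb) of exon, as the mean ± SD of the 12 group means. Hspa9 was at 113 ± 13 CPM per kb, Clpx at 63.5 ± 26.4, Trap1 at 55.7 ± 4.85, Lonp1 at 35.4 ± 2.52 and Clpp at 31.2 ± 3.32 CPM per kb. The inner membrane proteases formed a lower tier, with Afg3l2 at 7.59 ± 0.525, Yme1l1 at 7.37 ± 0.832 and Spg7 at 6.64 ± 0.692 CPM per kb, and Htra2 was lowest at 4.43 ± 0.409 CPM per kb. Group means of Lonp1 and Clpp overlapped, as did those of Afg3l2, Yme1l1 and Spg7, so by this length these neighbours are not ordered beyond their spread. The group means of Clpx ran from 29.1 to 113 CPM per kb and crossed those of Trap1, Lonp1, Clpp and Hspa9, a spread wider than that of any other member. The order of Lonp1 and Clpp depends on the length used. They came to 35.5 and 38.8 CPM per kb of the longest transcript, and to 52.4 and 38.8 CPM per kb of the longest protein-coding transcript. Afg3l2 kept its place, but its value rose to 16.1 and 24.2 CPM per kb by these lengths.

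**Figure D1:**
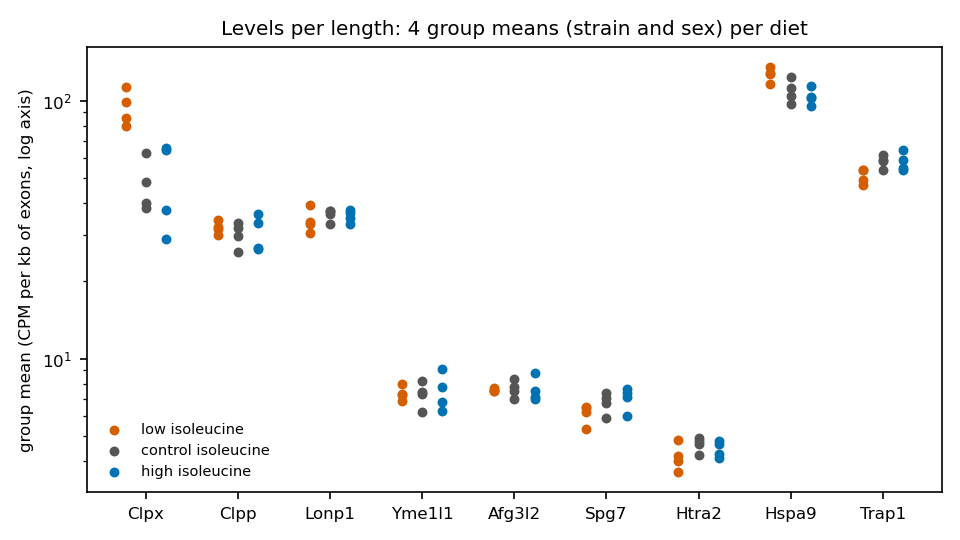
Mean level of each member in each of the 12 groups, in CPM per kilobase of exon on a log axis, with 4 points (strain and sex) for each isoleucine content from low to high. Clpx is the member whose low-isoleucine groups lie apart from the others, and Hspa9 has the highest levels.

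Clpx, on chromosome 9 from 65294260 to 65330658 (GRCm38, plus strand, 14 exons in its longest coding transcript), was about 2-fold higher with low than with control isoleucine in each strain and sex. In B6 females the lowest, median and highest levels were 248, 307 and 336 CPM with low isoleucine, against 82.9, 122 and 239 CPM with control. In B6 males they were 206, 284 and 360 CPM with low isoleucine, against 71.0, 139 and 174 CPM with control. All low libraries of these B6 mice lay above all controls of the same sex. In DBA females they were 332, 384 and 492 CPM with low isoleucine, against 167, 215 and 298 CPM with control. In DBA males they were 269, 358 and 395 CPM with low isoleucine, against 118, 177 and 205 CPM with control. Here too the groups did not overlap. Genes with all low libraries above all controls in all 4 classes of strain and sex numbered 3 of 14954 (0.0201%). Clpx was chosen from these same values, so its place among them is a description and the share is no evidence for it. The others were Cyp4a10 and Cyp4a14, a pair of closely related fatty acid hydroxylase genes named after their values were seen. The log2 fold change of Clpx was 1.01 ± 0.10 (SE) as the mean of the 4 classes, or 2.01-fold, and, each with an SE of 0.21, 1.03 in males and 0.85 in females of DBA, and 1.05 in males and 1.10 in females of B6. The authors' deposited table gives 1.05, 0.86, 1.07 and 1.20 for these classes in the same order. Among B6 female controls, library 4 had the highest Clpx level, 239 CPM, and library 3, with the same number in its title, the next, 184 CPM. Without library 4 the log2 fold change in that class was 1.32, the highest of the fits that left out a library. The lowest of them was 0.985.

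**Figure D2:**
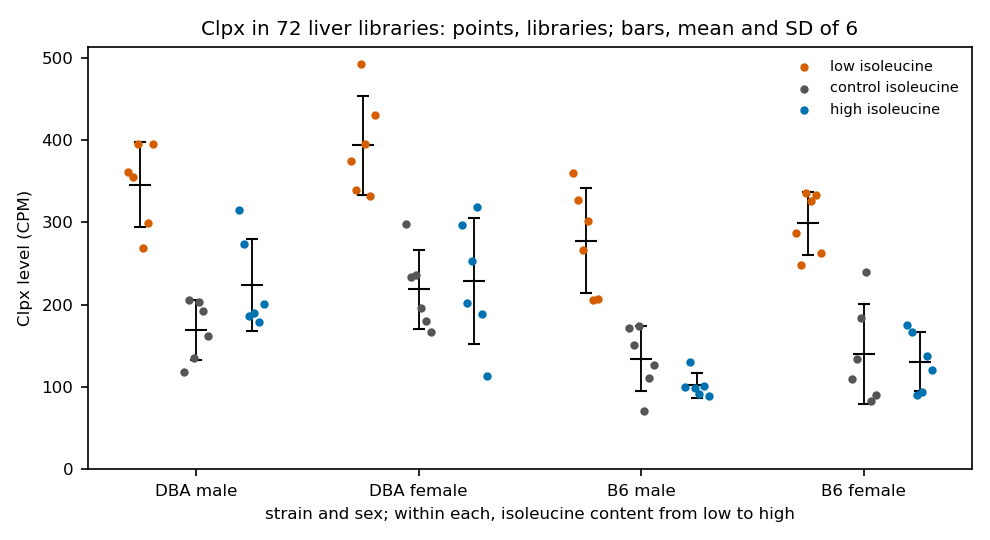
Clpx level in CPM in each of the 72 libraries, by strain and sex and, within each, by isoleucine content from low to high. Points are libraries and bars the mean and SD of 6, and every low-isoleucine point is above every control point of its class.

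High isoleucine left Clpx near control on average. The mean log2 fold change over the 4 classes was -0.01 ± 0.10 (edgeR quasi-likelihood test, adjusted p = 1), an interval of ±2 SE of -0.21 to 0.20, and its sign turned under 4 other settings. By class it was -0.40 ± 0.21 in B6 males (adjusted p = 0.25) and 0.40 ± 0.21 in DBA males (adjusted p = 0.6). B6 males had 89.0, 99.3 and 130 CPM (lowest, median, highest) with high isoleucine, against 71.0, 139 and 174 CPM with control. DBA males had 179, 196 and 315 CPM with high isoleucine, against 118, 177 and 205 CPM with control. The groups overlapped in each sex and strain, and the difference between the strains' responses, DBA minus B6, was 0.48 ± 0.21 (adjusted p = 0.29), which did not pass. High against low isoleucine shares its low libraries with the comparison above and gave -1.01 ± 0.10 for Clpx, with no overlap except in DBA males, where high libraries reached 315 CPM and the lowest low library had 269 CPM.

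Clpp, the peptidase that ClpX serves (chromosome 17, 56990305 to 56996188), stayed near its control level in the same libraries. Over all classes Clpp had 28.4, 38.8 and 49.6 CPM (lowest, median, highest of 24 libraries) with low isoleucine, against 25.8, 38.2 and 50.2 CPM with control. These ranges overlapped almost fully, and the log2 fold change was 0.09 ± 0.08 (adjusted p = 0.39), an interval of -0.07 to 0.25. The ratio of Clpx to Clpp per kb therefore moved with Clpx. Its median in B6 females was 2.52 with low isoleucine, against 0.965 with control, and in B6 males 2.51 with low isoleucine, against 1.31 with control. In DBA females it was 3.57 with low isoleucine, against 2.26 with control, and in DBA males 3.14 with low isoleucine, against 1.44 with control. Ranges of single libraries overlapped except in DBA females, for example from 1.98 to 3.03 with low isoleucine against 0.652 to 2.87 with control in B6 females. Across the 12 group means the 2 subunits did not rise and fall together (Pearson r = 0.03, Spearman rho = 0.05, a description of groups that share library depth and scaling).

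Lonp1, the other matrix protease (chromosome 17, 56614297 to 56626887), had 112, 148 and 190 CPM with low isoleucine, against 119, 161 and 193 CPM with control. The ranges overlapped and the fold change of -0.07 ± 0.04 on the log2 scale did not pass (adjusted p = 0.2), although with library quality weights in limma voom it was -0.11 (adjusted p = 0.029).

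At the inner membrane, Spg7 fell with low isoleucine and its partner Afg3l2 did not pass. Spg7 (chromosome 8, 123062942 to 123097760) had 22.2, 27.7 and 32 CPM with low isoleucine, against 24.0, 30.9 and 36.5 CPM with control, and its log2 fold change was -0.14 ± 0.04 (adjusted p = 0.0067). The ranges overlapped in every class and the class values, from -0.189 in B6 females to -0.055 in B6 males, all lay below 0. Gm20388, a gene annotated on the same strand across Spg7 that shares no exonic base with it, rose by 0.20 ± 0.05 (adjusted p = 0.0019) and so did not share the fall. Afg3l2 (chromosome 18, 67404764 to 67449172), the subunit that can form the m-AAA ring alone, had 63.5, 75.7 and 85.7 CPM with low isoleucine, against 61.8, 75.8 and 85.8 CPM with control. Its log2 fold change was -0.01 ± 0.03 (adjusted p = 0.91), the narrowest interval of the set, -0.08 to 0.06. Yme1l1 (chromosome 2, 23156369 to 23199260), the i-AAA protease, had 46.5, 58.3 and 83.2 CPM with low isoleucine, against 42.8, 58.5 and 77.4 CPM with control (log2 fold change 0.01 ± 0.06, adjusted p = 0.87). The medians of Afg3l2 and Yme1l1 hardly differed between the diets.

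Htra2 (chromosome 6, 83051266 to 83055273), which is released to the cytosol when the outer membrane is breached, had 9.63, 12.1 and 17.2 CPM with low isoleucine, against 10.7, 13.7 and 16.3 CPM with control, and its log2 fold change was -0.16 ± 0.05 (adjusted p = 0.014). In B6 females all low libraries, 9.63 to 11.4 CPM, lay below all controls, 12.1 to 15.9 CPM, and the log2 fold change was -0.37 ± 0.11 (adjusted p = 0.012). The other classes, each with an SE of 0.11, did not pass, with -0.02 in males and -0.19 in females of DBA and -0.08 in males of B6. In B6 females 2.84% of all tested genes had their low libraries below all controls. Its value is uncertain, because 25.6% of its exonic bases are shared with Aup1 on the other strand, whose counts were 1154% of those of Htra2, and 18.2% with Loxl3, and the counting is not stated to use strand. The log2 fold changes of these neighbours were 0.00 ± 0.09 for Aup1 and 0.11 ± 0.10 for Loxl3, neither past the test.

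Of the chaperones, Hspa9 rose and Trap1 fell. Hspa9 (chromosome 18, 34937414 to 34954357) had 425, 555 and 674 CPM with low isoleucine, against 291, 474 and 588 CPM with control. The ranges overlapped from 425 to 588 CPM, and the log2 fold change was 0.22 ± 0.05 (adjusted p = 0.001), 1.16-fold. It was above 0 in each class, from 0.13 ± 0.11 in B6 males to 0.29 ± 0.11 in B6 females. The B6 female value passed on its own (adjusted p = 0.044), but was lost with no filter on low counts (adjusted p = 0.12), with the number in the libraries' titles, shared by 2 libraries of a group, as a block in limma voom (adjusted p = 0.11) and in 9 of 72 fits that left out a library, those of control libraries 1, 2, 3 and 6 and low libraries 1, 2, 3, 5 and 6 of that class, with log2 fold changes of 0.25 to 0.30 there. A processed pseudogene of Hspa9 is annotated, and reads from the 2 copies may not be separable. Trap1 (chromosome 16, 4039971 to 4077827) had 110, 135 and 148 CPM with low isoleucine, against 126, 148 and 178 CPM with control. The highest low library was at the control median, and the log2 fold change was -0.18 ± 0.04 (adjusted p = 4.6e-05). It was below 0 in every class, from -0.12 in DBA females to -0.32 ± 0.07 in DBA males, where it passed alone (adjusted p = 0.0011) with 111, 121 and 135 CPM against 132, 151 and 171 CPM. Hspa9 and Trap1 thus went opposite ways as means over the classes, and no class had both past the test. Across the 72 libraries, with group means subtracted, their levels did not run opposite (r = 0.24).

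**Figure D3:**
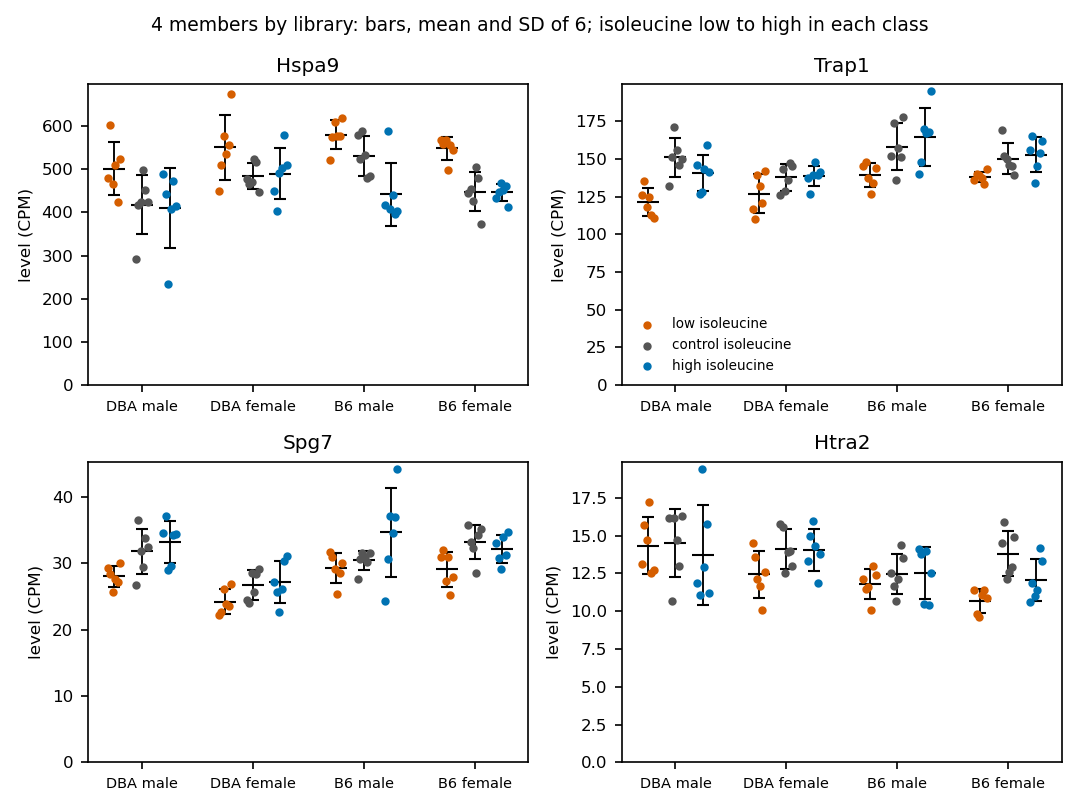
Levels in CPM of Hspa9, Trap1, Spg7 and Htra2 in each library, by strain and sex with isoleucine from low to high. Points are libraries and bars the mean and SD of 6, and the low-isoleucine means of Hspa9 are the highest of each class while those of Trap1 are the lowest.

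Over the set, 5 of 9 members passed in low against control isoleucine as the mean of 4 classes, 2 higher and 3 lower, where 37.8% of all tested genes passed. Clpx chose the set from this contrast, so nothing is read from the count with it. Of the other 8 members 4 passed, 1 higher and 3 lower, with a median log2 fold change of -0.04, against 0.00 over all genes. By class, of these 8, 1 passed in males (17.7% of all genes) and 0 in females (11.8%) of DBA, and 0 in males (5%) and 2 in females (20.8%) of B6. At an unadjusted p under 0.05 edgeR gave 0 of the 8 in DBA females and 1 in B6 males. In high against control isoleucine 0 of 9 members passed as the mean of the 4 classes, and 0 of all genes did (0%); at an unadjusted p under 0.05 the count of members was also 0 with edgeR. By class 0 members passed either, where 0.0134% of all genes passed in males and 0.00669% in females of DBA, and 0% in females of B6. In B6 males, where 4.51% of all genes passed, 0 members passed and 2 had an unadjusted p under 0.05, Spg7 at 0.19 ± 0.09 and Hspa9 at -0.26 ± 0.11 on the log2 scale. In high against low isoleucine 43.6% of all genes passed and 3 of the 8 members other than Clpx did: Hspa9 was lower with high isoleucine (-0.29 ± 0.05, adjusted p = 1.5e-05), and Spg7 (0.20 ± 0.04, adjusted p = 0.00012) and Trap1 (0.18 ± 0.04, adjusted p = 4.7e-05) were higher. Htra2 was at 0.09 ± 0.05 there and did not pass (adjusted p = 0.16). By class, again without Clpx, 2 members passed in males (14.3% of all genes) and 0 in females (14.9%) of DBA, and 4 in males (25.9%) and 1 in females (19.1%) of B6. In DBA females 0 of the 8 had an unadjusted p under 0.05 with edgeR either. The counts in males of both strains and in B6 females moved with the settings. This comparison uses the same low libraries as low against control.

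**Figure D4:**
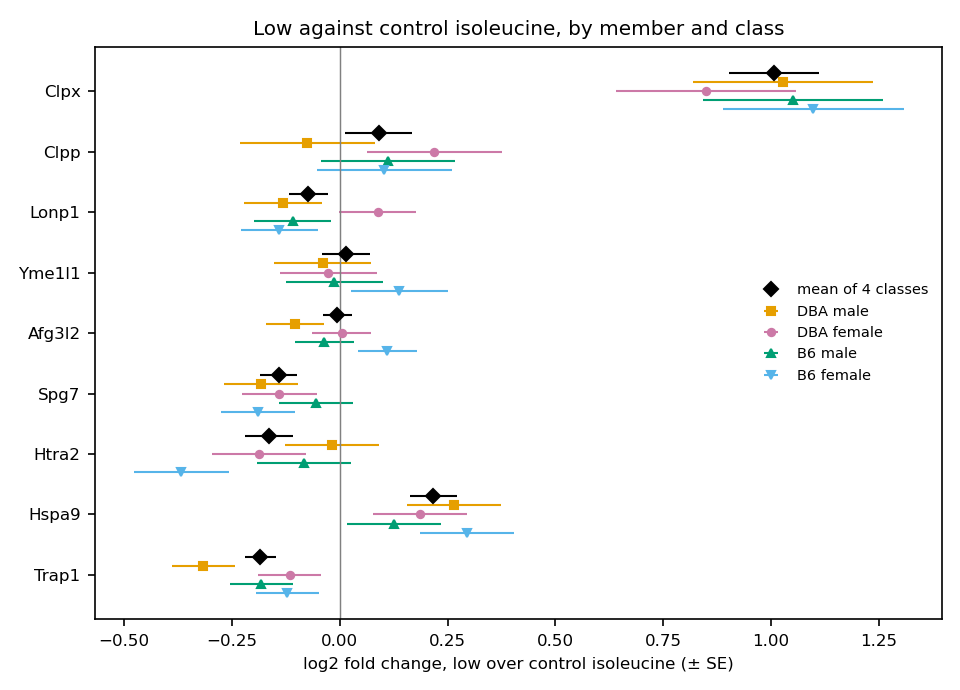
Log2 fold change of low over control isoleucine with its standard error for each member, as the mean of the 4 classes and for each strain and sex. Clpx lies between 0.85 and 1.10 in every class, Hspa9 above 0 and Spg7, Htra2 and Trap1 below 0 in each.

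Of the 8 members other than Clpx, 0 were shown to differ between strains or sexes in their response to low isoleucine. Clpx was chosen from these values, so its differences of log2 fold changes are given as a description without a test. They were -0.14 ± 0.21 for DBA minus B6 and 0.07 ± 0.21 for males minus females, with intervals of -0.55 to 0.28 and -0.35 to 0.48. Of all genes 1.39% and 6.68% passed the tests of these differences, and 0 of the 8 members did. The nearest was Htra2, with a difference of 0.23 ± 0.11 for males minus females (unadjusted p = 0.042, adjusted p = 0.21). The corresponding tests of high isoleucine were passed by 0.461% of genes for strain and 0% for sex, and by 0 members.

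On the control diet Clpx was higher in DBA than in B6 livers. Its means were 219 ± 48.0 CPM in DBA females and 169 ± 36.8 CPM in DBA males, against 140 ± 60.8 CPM in B6 females and 134 ± 39.7 CPM in B6 males (SD, n = 6 each). The ranges overlapped in each sex, and the log2 fold change over both sexes was 0.49 ± 0.15 (edgeR adjusted p = 0.0045). Yme1l1 was also higher, by 0.22 ± 0.08 (adjusted p = 0.021, a call lost with the title number as a block in limma voom, adjusted p = 0.051), at 59.5 ± 5.74 CPM in DBA females and 65.8 ± 7.67 CPM in DBA males, against 49.8 ± 7.32 CPM in B6 females and 58.3 ± 5.97 CPM in B6 males. These were 2 of 9 members, where 45.4% of all genes differed between the strains. Reads of both strains were aligned to a B6 genome, so alignment and expression cannot be told apart in this comparison. Between the sexes Afg3l2 was the member that passed, with 82.0 ± 3.59 CPM in DBA males and 76.6 ± 3.80 CPM in B6 males, against 73.7 ± 4.32 CPM in DBA females and 68.8 ± 4.98 CPM in B6 females. The log2 fold change of males over females was 0.16 ± 0.05 (edgeR adjusted p = 0.012, and 0.088 with no filter on low counts), and 26.2% of all genes passed. Clpx did not pass between the sexes (-0.21 ± 0.15, adjusted p = 0.3).

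Clpx varied within groups, and other genes varied with it. The B6 female controls ran from 82.9 to 239 CPM and the DBA female high-isoleucine libraries from 113 to 319 CPM. After each group's mean was subtracted from the log2 CPM values, the genes most like Clpx over the 72 libraries were Lgalsl (Pearson r = 0.83, Spearman rho = 0.81), Dtx4 (0.78 and 0.78), Arntl (0.76 and 0.72), Asap2 (0.75 and 0.71) and Insig2 (0.75 and 0.69). Without the 2 libraries farthest from the median, r lay between 0.69 for Asap2 and 0.79 for Lgalsl. Arntl encodes the clock activator BMAL1 and Insig2 a brake on sterol synthesis. Dbp, a clock output gene named after its values were seen, was the least like it, with r = -0.70 and rho = -0.66. By class, with 18 libraries each, r for Arntl was 0.45 in males and 0.92 in females of DBA, and 0.77 in males and 0.75 in females of B6. For Dbp it was -0.47, -0.83, -0.71 and -0.69 in that order. These values were chosen as the highest and lowest of many genes and describe libraries that share depth and scaling. Over all genes, libraries with 1 title number were closer to each other than to others of their group. The libraries are therefore not independent points in any within-group r given here or below. In B6 female controls 1 such pair had Clpx at 184 and 239 CPM and another at 82.9 and 89.5 CPM, while a pair of B6 male controls had 174 and 71.0 CPM.

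The same genes differed between the diets. Arntl had 6.08, 21.6 and 33.3 CPM (lowest, median, highest of 24) with low isoleucine, against 1.60, 4.96 and 20.9 CPM with control, and a log2 fold change of 1.56 ± 0.18 (adjusted p = 2.9e-10). Dbp had 1.63, 5.94 and 62.7 CPM with low isoleucine, against 4.14, 58.2 and 198 CPM with control, and a log2 fold change of -2.88 ± 0.24 (adjusted p = 2.9e-14). The labels give no time of day at which livers were taken. The part of what moves Arntl and Dbp in the Clpx values was not tested. Among the members, Yme1l1 was the one whose within-group values went most with those of Clpx (r = 0.39, rho = 0.45), followed by Hspa9 (r = 0.24, rho = 0.15). Clpp went the other way (r = -0.29, rho = -0.30), and Trap1 was near 0 (r = 0.02, rho = 0.03). Over all pairs of members the highest within-group r was 0.71, for Clpp and Htra2, and the lowest -0.51, for Clpp and Yme1l1. Library 3 of DBA males with high isoleucine was extreme in these genes. Of the 72 libraries it had the highest Clpp (69.8 CPM) and Htra2 (19.4 CPM) and the lowest Yme1l1 (39.6 CPM). The r of these pairs without it was not computed, and the Htra2 values carry the uncertainty from Aup1 given above.

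**Figure D5:**
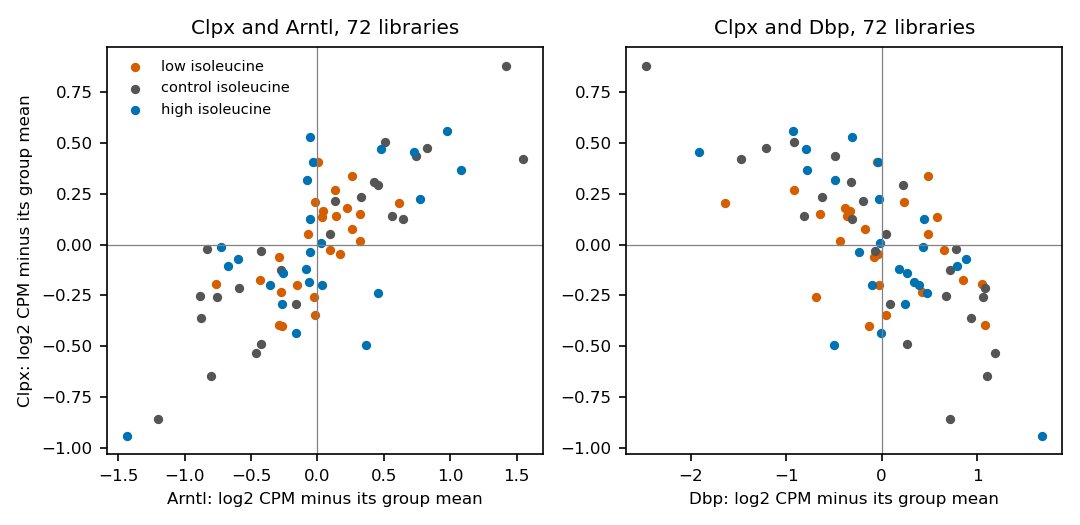
Clpx against Arntl and against Dbp in the 72 libraries, each as log2 CPM minus the mean of the library's own group, coloured by isoleucine content. Libraries with more Clpx than their group had more Arntl (r = 0.76) and less Dbp (r = -0.70).

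Over the 12 group means another set of genes was most like Clpx: Rdh13, a retinol dehydrogenase found at the inner membrane (r = 0.95, rho = 0.95), Avpr1a, the hepatic vasopressin receptor (0.95 and 0.87), Dis3, an exosome ribonuclease (0.95 and 0.93), Rbak (0.94 and 0.92) and Ccnt2, a cyclin of transcription elongation (0.94 and 0.92). Within groups the likeness varied by class. The r of Rdh13 ran from -0.23 in DBA females to 0.57 in B6 females, that of Avpr1a from -0.30 in B6 females to 0.58 in DBA females, that of Dis3 from -0.13 in B6 males to 0.49 in B6 females, that of Rbak from -0.63 in DBA males to 0.37 in B6 males and that of Ccnt2 from -0.48 in DBA males to 0.42 in B6 females. Trap1 was the member whose group means ran opposite to Clpx (r = -0.94, rho = -0.89), with Spg7 next (r = -0.77, rho = -0.69). These follow from the diet difference that chose Clpx and are given as a description.

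Of 14 further mitochondrial proteases and peptidases 7 fell with low isoleucine, 1 rose and 6 did not pass, with a median log2 fold change of -0.11, against 0.00 over all genes. Mipep, an intermediate peptidase that trims imported proteins, fell by 0.43 ± 0.07 (adjusted p = 1.4e-06), Afg1l, a mitochondrial AAA ATPase, by 0.41 ± 0.06 (adjusted p = 5.8e-08), Oma1, the stress-activated protease of the inner membrane, by 0.39 ± 0.06 (adjusted p = 1.4e-06) and Pmpcb, a subunit of the presequence peptidase, by 0.23 ± 0.04. Oma1 had 6.42, 8.52 and 10.8 CPM with low isoleucine, against 7.54, 11.5 and 15.5 CPM with control. Of 13 further chaperones and their cochaperones 3 rose and 4 fell (median 0.01). Dnaja3, a cochaperone of Hspa9, rose by 0.25 ± 0.05 (adjusted p = 1.1e-05). Hscb, the iron-sulfur cochaperone of Hspa9, fell by 0.53 ± 0.09 (adjusted p = 9.8e-06), Bcs1l, which assembles complex III, by 0.37 ± 0.06 and Clpb, a disaggregase, by 0.32 ± 0.04. Hspd1 and Hspe1, the Hsp60 and Hsp10 of the matrix, were at 0.12 ± 0.06 and 0.08 ± 0.06 and did not pass. As for the members, 37.8% of all genes passed in this comparison, 17.8% higher and 20% lower.

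Genes of import, of the respiratory chain and of mitochondrial biogenesis were those of the 10 lists of related genes in which some rose and none fell. These lists are put together here by how they moved, as a description, and 17.8% of all genes rose and 20% fell in this comparison. Of 21 protein import genes 8 rose and 0 fell (median 0.09), among them Samm50, of the outer membrane sorting complex, by 0.34 ± 0.05 (adjusted p = 8.2e-08), the import receptor Tomm20 by 0.31 ± 0.05 and the channel Timm23 by 0.25 ± 0.05. Of 16 genes of mitochondrial mass and the respiratory chain 9 rose and 0 fell (median 0.12), with cytochrome c, Cycs, at 0.34 ± 0.06 (adjusted p = 4.1e-06) and citrate synthase, Cs, at 0.17 ± 0.04. Of 9 regulators of mitochondrial biogenesis 4 rose and 0 fell, with Ppargc1a, the coactivator PGC-1 alpha, at 0.72 ± 0.15 (adjusted p = 0.00014), Pprc1 at 0.50 ± 0.09, Sirt1 at 0.28 ± 0.06 and Nrf1 at 0.17 ± 0.06.

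Of 11 genes of heme synthesis, the pathway whose first step ClpX serves, 5 fell, 1 rose and 5 did not pass (median -0.11), where 20% of all genes fell and 17.8% rose. Abcb10 fell by 0.28 ± 0.07, Ppox by 0.26 ± 0.06, Alad by 0.26 ± 0.06 and Uros by 0.22 ± 0.08. Alas1, that first enzyme, had 125, 403 and 710 CPM with low isoleucine, against 177, 381 and 1578 CPM with control, and did not pass (-0.23 ± 0.15, adjusted p = 0.23). Of 11 partners and substrates of the inner membrane proteases 2 rose and 3 fell, with Phb2, a prohibitin that surrounds the m-AAA protease, at 0.18 ± 0.04 and Stoml2 at -0.15 ± 0.04. Of 11 genes of mitochondrial stress signalling and the integrated stress response 2 rose and 1 fell. Atf4 was at 0.25 ± 0.07 (adjusted p = 0.0017) and its target Asns at 1.29 ± 0.38 (adjusted p = 0.005). Asns had 0, 1.15 and 14.8 CPM (lowest, median, highest) with low isoleucine, against 0, 0.308 and 18.6 CPM with control. Its ranges thus overlapped, with medians near the floor. Gdf15, a stress hormone, was at -0.65 ± 0.26 (adjusted p = 0.046). Atf5, a factor linked to the mitochondrial unfolded protein response, was at 0.16 ± 0.11 and did not pass (adjusted p = 0.28). Of 11 genes of mitochondrial DNA upkeep 1 rose and 2 fell, and Tfam, which packages that DNA, was at -0.02 ± 0.05 (adjusted p = 0.78). Of 11 cytosolic and endoplasmic reticulum relatives of the chaperones, Hspa5, the Hsp70 of the endoplasmic reticulum, rose by 0.37 ± 0.10 and Hsp90ab1 fell by 0.20 ± 0.07. In high against control isoleucine 0% of all genes passed with edgeR, so the count of 0 in each of these 10 lists says nothing of the lists.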

How the data were processed

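Liver RNA of 72 libraries in 12 groups was sequenced. The authors deposited expected counts per Ensembl gene, estimates that need not be whole (9.556% of the nonzero values were not whole), on GRCm38.p5 per the labels' protocols. Aligner, counting program and use of strand: not given in the sources used here. R 3.4.3, edgeR and limma appear in the submitters' processing notes. A table of the authors' own log2 fold changes and p-values of diets against control was deposited too and used for comparison. Each of its columns was assigned to low or high isoleucine by its higher correlation with the values computed here. For 72 values of the 9 members the 2 sources then had the same sign in 69 and the same side of the threshold in 72. Both come from the same libraries, so this is not an independent check. The count table listed 50308 genes, 1 on an incomplete line, and 0 of its columns were left unmatched to libraries.

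Counts were rounded, genes filtered with filterByExpr by group and libraries scaled by TMM (factors 0.841 to 1.137). The 14954 genes left went into edgeR's quasi-likelihood test (4.0.16, R 4.3.3, robust dispersions) in 1 fit of all libraries, with Benjamini-Hochberg adjustment over all of them and a threshold of 0.05. The fit was tested on simulated data with known changes in low against control isoleucine. As the mean of 4 classes it recovered 83.0% of log2 changes of -0.5 and 90.5% of those of 0.5. In B6 females alone it recovered 42.6% and 35.7%, so changes of this size or smaller can be missed in a single class. The simulated libraries were drawn independently, so these shares do not cover the likeness of libraries with 1 title number. Gene positions are those of the Ensembl annotation for GRCm38. "Passed", "rose" and "fell" mean an adjusted p under 0.05. Errors are between libraries. The members and gene lists were chosen with earlier results of these data known. By rule the text names all members, up to 4 genes per list with the lowest p in low against control isoleucine plus Alas1, Hspd1, Hspe1, Oma1, Phb2, Atf5, Atf4, Tfam and Ppargc1a, and the 5 genes of at least 1 CPM most like Clpx by each measure. The exceptions, named after their values were seen, are Dbp, Cyp4a10, Cyp4a14 and genes that overlap members. Alternatives were DESeq2 size factors, DESeq2 1.42.0, no filter, each class alone, limma 3.58.1 voom with and without the title number as block or with quality weights, each library left out and other gene lengths.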

Additional observations from a re-analysis of the deposited data

Results flagged for a closer look

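Of 108 sets of 6 libraries (9 genes in 12 groups), 9 held a library set apart from the other 5 by Dixon's ratio, where chance flags about 1 in 20 sets. Among B6 males with high isoleucine, library 2 had the highest Clpx level, 130 CPM against 101 CPM for the next, and the highest Hspa9 level, 588 CPM against 440 CPM. Among DBA males with high isoleucine, library 3 had the lowest Hspa9 level, 234 CPM against 408 CPM for the next, and the lowest Yme1l1 level, 39.6 CPM against 71.0 CPM, and library 5 had the highest Lonp1 level, 173 CPM against 146 CPM. The lowest Hspa9 level of B6 females with low isoleucine was 498 CPM in library 4, against 544 CPM for the next. Afg3l2 was lowest at 64.2 CPM in library 2 of DBA females with high isoleucine, against 73.2 CPM for the next. In B6 male controls, Clpp was lowest at 25.8 CPM in library 2, against 36.6 CPM for the next, and Spg7 at 27.7 CPM in library 1, against 30.2 CPM. What sets these libraries apart was not tested.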

How the results depend on the processing

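In low against control isoleucine as the mean of the 4 classes, 5 members passed with each of the 72 libraries left out and under each other alternative, except 6 with quality weights. Clpx chose the set, so nothing is read from its part in this count or in those of high against low isoleucine. Apart from Clpx, Hspa9, Htra2, Spg7 and Trap1 passed in all 72 fits that left out a library. Clpp, Lonp1, Yme1l1 and Afg3l2 passed in 0 of them. Counts of members that passed, Clpx included here, moved by over 1.5 times in these comparisons. High against low isoleucine in B6 females gave 2 members, 1 with no filter and 1 with the title number as replicate block, and 1 to 2 with a library left out. In B6 males it gave 5, then 2 with no filter, 2 with the class alone and 3 with the block, and 2 to 5 with a library left out (2 without high library 6, 3 without low library 5). In DBA males it gave 3, then 0 with no filter, 1 with the class alone, 0 with the block, 5 with quality weights and 5 with DESeq2, and 0 to 4 with a library left out (0 without high library 6 or low library 3 or 6, 1 without high library 4 or 5). DBA against B6 gave 2, 1 with the block and 4 with quality weights. Males against females gave 1, 0 with no filter, 2 with quality weights and 1 to 2 with a library left out. High against control in B6 males gave 0, and 0 to 1 with a library left out (1 without high library 1 or 2).

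Values near 0 changed sign. Clpx in high against control was 0.046 with quality weights, 0.004 with the block, 0.005 with voom alone, 0.0 with no filter and -0.039 to 0.049 with a library left out as the mean of the classes; 0.157 with quality weights and -0.21 to 0.123 in B6 females; -0.011 with quality weights and -0.051 to 0.207 in DBA females; and -0.053 with quality weights and -0.093 to 0.076 as the difference of males minus females. The same difference in low against control was -0.036 with quality weights and -0.044 to 0.126 with a library left out. Afg3l2 in low against control was 0.001 with no filter and -0.016 to 0.004 with a library left out, and Yme1l1 was -0.008 to 0.029. The cause was not tested.

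The title number is shared by 2 libraries of a group and by none of another diet in its class, so it cannot pair diets. Libraries of 1 number were closer to each other than to other libraries of their group in 12 of 12 groups. Mean correlations of their deviations from the group mean ran from -0.162 to 0.082, against -0.27 to -0.207 for other pairs. Subtracting a group's mean pulls such correlations below 0, so the 6 of 36 pairs over 0.1 understate this likeness. The main edgeR fit treats libraries of 1 number as independent. With the block (consensus correlation 0.244), Hspa9 in B6 females, low against control, had an adjusted p of 0.11, and Yme1l1 in DBA against B6 an adjusted p of 0.051.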
